A study of Homo sapiens with 27 samples.

Results

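The spindle checkpoint genes *MAD1L1*, *MAD2L1*, *BUB1*, *BUB1B*, *BUB3*, *TTK* and *MAD2L1BP* were followed in U2OS cells depleted of TPR, the nuclear pore basket protein to which the MAD1 and MAD2 proteins bind. They were taken by gene symbol, and are 7 of the 34464 genes in the deposited table. U2OS is a human osteosarcoma line. Cells were infected for 5 days with lentivirus carrying a control shRNA or either of the TPR shRNAs 'TPR A' and 'TPR D', and were used as infected populations, not clones. For RNA Frac-Seq they were split with detergent into a nuclear and a cytoplasmic/ER fraction beside an unsplit total fraction, and poly(A)+ RNA was sequenced. Each shRNA and fraction had 3 replicates, which makes 27 libraries in 9 groups. The labels number the replicates without naming their source, and the paper's methods call them biological replicates. How these were raised is not stated, so p-values measure the spread between these libraries.

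The spindle checkpoint holds a cell in mitosis until every chromosome has been captured by microtubules. At a kinetochore that is not attached, the kinase encoded by *TTK* (MPS1) recruits BUB1 and BUB3, on which MAD1 docks and converts MAD2 to the form that binds CDC20. MAD2, BUBR1 (encoded by *BUB1B*) and BUB3 then hold CDC20 in a complex that blocks the anaphase-promoting complex, and p31comet, the product of *MAD2L1BP*, helps to take that complex apart. In interphase MAD1 and MAD2 sit at the nuclear basket with TPR, and most checkpoint genes are transcribed mainly in G2 and mitosis.

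Values are FPKM, that is fragments scaled by transcript length and library size, so levels of different genes can be compared per length. The reads behind each value were estimated from the size of single-read steps among low values, by which 1 FPKM over 1 kb of transcript stood for 31.4 to 87.0 reads (median 48.9), which gave the 7 genes between 554.9 reads (*TTK*, in its lowest library) and 88197 reads (*BUB3*, in its highest). Counting error alone was thus at most 4.25% of a value. The target was lower in every depleted total library: *TPR* was at 26.4 ± 1.57 FPKM (SD, n = 3) in control, 4.17 ± 0.654 with TPR A and 4.66 ± 1.39 with TPR D, a log2 difference of -2.51 for both (limma adjusted p = 3.55e-04). Of the osteoblast and mesenchymal markers *SPARC* was at 269 to 949 FPKM, *VIM* at 854 to 2662 and *COL1A1* at 20.6 to 87.5, while *COL1A2* was at no more than 0.744. *CDKN2A* and *TERT*, which U2OS cells are known to keep low, reached 0.280 and 0.0488 FPKM. Markers of blood and endothelium were at or below 1.22 FPKM (*PTPRC*), and *EPCAM* was at 1.43 to 6.87.

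A pair of libraries went against their labels. Genes of the mitochondrial genome took 0.738% of the FPKM in the total library of control replicate 2 but 15.8% to 24.7% in the other 8 total libraries. In the nuclear library of the same replicate they took 21.8%, against 0.774% to 2.42% in the other 8 nuclear libraries. The lncRNAs *MALAT1* and *NEAT1*, known as nuclear, were at 16.3 and 23.0 FPKM in the total library of control replicate 2. In the other 8 total libraries they were at 71.6 to 206.8 and 56.8 to 150.3 FPKM. In the nuclear library of control replicate 2 they were at 83.6 and 69.7 FPKM, against 16.3 to 40.1 and 21.7 to 67.1 in the other 8 nuclear libraries. Outside this replicate *MALAT1* was thus lower in every nuclear than in any total library, and the ranges of *NEAT1* overlapped. The profile of the total library of control replicate 2 was closer to nuclear libraries (r = 0.9715) than to its labelled fraction (r = 0.94). That of its nuclear library was closer to total libraries (r = 0.9756) than to its labelled fraction (r = 0.9443). Every other library was closest to its own fraction. Whether this pair was exchanged was not tested. Both libraries were kept under their labels, and the main results are also given without control replicate 2. All 3 libraries of that replicate were then left out.

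Promoter sequence is shown because most checkpoint genes are known as genes of G2 and mitosis. Many such genes carry TTTGAA or TTCGAA, known as the cell cycle genes homology region, near their start site. These 2 motifs, which cannot share a position, were searched on both strands in the RefSeq promoter windows (GRCh38.p14, 250 bases before to 50 after the start). By symbol 5 of the 7 genes matched an entry, with 6 windows in all, and *BUB3* and *TTK* matched none. The lines that follow hold the 30 bases around each match, read on the strand of the gene, with the match in capitals.
BUB1, chr2:110678045-110678074, minus strand: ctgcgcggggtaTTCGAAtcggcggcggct
BUB1B, chr15:40161034-40161063, plus strand: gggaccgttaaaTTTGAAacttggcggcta
MAD2L1, chr4:120066807-120066836, minus strand: tgcgtcgttactTTTGAAacgcttggcggg
MAD2L1BP, chr6:43635711-43635740, plus strand: aggaacgcagggTTCAAAtcccagctccac
The match began at base 2 after the start in *BUB1*, at base 25 after it in *MAD2L1* and 23 bases before it in *BUB1B*. In *MAD2L1BP* it lay on the opposite strand, so it reads TTCAAA here, 117 bases before the start of 1 of the gene's 2 windows. The other *MAD2L1BP* window and that of *MAD1L1* held no match. Of all 35116 windows 16.4% held either motif, 15.2% TTTGAA and 1.45% TTCGAA. A match is a string of letters in these windows and no evidence of binding.

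The 7 genes differed widely in structure. *MAD1L1* (ENSG00000002822, GRCh37 chr7:1855429-2272878) spans a pre-mRNA of 417150 nt with 19 exons, whereas *MAD2L1BP* (ENSG00000124688, chr6:43597277-43608678) has 5102 nt and 3 exons. *MAD2L1* (ENSG00000164109, chr4:120976778-120988013) has 5 exons in 11226 nt and *BUB3* (ENSG00000154473, chr10:124913918-124929983) has 8 in 16066 nt. The remaining 3 genes are the richest in exons. *BUB1* (ENSG00000169679, chr2:111395105-111435640) has 25, *BUB1B* (ENSG00000156970, chr15:40453224-40513324) has 23 and *TTK* (ENSG00000112742, chr6:80713604-80752244) has 22, on pre-mRNAs of 40536, 60055 and 37879 nt. The median over 12076 tested protein-coding genes is 9 exons and 28309 nt. *BUB1B* overlaps *PAK6* and the readthrough *BUB1B-PAK6*, which reached at most 0.535 and 0.244 FPKM.

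All 7 genes passed the filter of a mean above 1 FPKM and were among the 14611 genes tested. *BUB3* and *MAD1L1* were the most abundant, with medians over the 27 libraries of 161 FPKM (105.3 to 210.6) and 117.6 FPKM (67.99 to 262.2). *MAD2L1* (36.5, from 24.5 to 67.1), *BUB1* (36.1, from 14.0 to 97.7) and *MAD2L1BP* (34.1, from 22.2 to 42.5) came next, and their ranges overlapped throughout. *BUB1B* had a median of 25.8 FPKM (8.02 to 63.3) and *TTK* one of 23.5 FPKM (5.77 to 48.9). The mean level of *TTK*, the lowest of the 7, was still above that of 65.6% of the tested genes. In control total libraries *BUB3* was at 163.1 ± 43.4 FPKM (SD, n = 3) and *MAD1L1* at 135.8 ± 109.5. The spread of *MAD1L1* came from replicate 2, where it was at 262.2 FPKM and *BUB3* at 210.6. In replicates 1 and 3 *BUB3* was the higher, at 153.2 and 125.5 FPKM against 76.1 and 69.1. The same held in the depleted total libraries, at 105.3 to 140.8 FPKM against 68.0 to 99.7. The SDs of neighbours overlapped among *BUB1* (58.1 ± 23.9), *BUB1B* (43.5 ± 18.9), *MAD2L1* (42.8 ± 15.0), *TTK* (32.4 ± 10.9) and *MAD2L1BP* (29.5 ± 11.3) in the control total libraries. Library by library, *BUB1* was above *BUB1B* and *MAD2L1* above *TTK* in each of these. The other neighbours changed order between libraries.

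**Figure D1:**
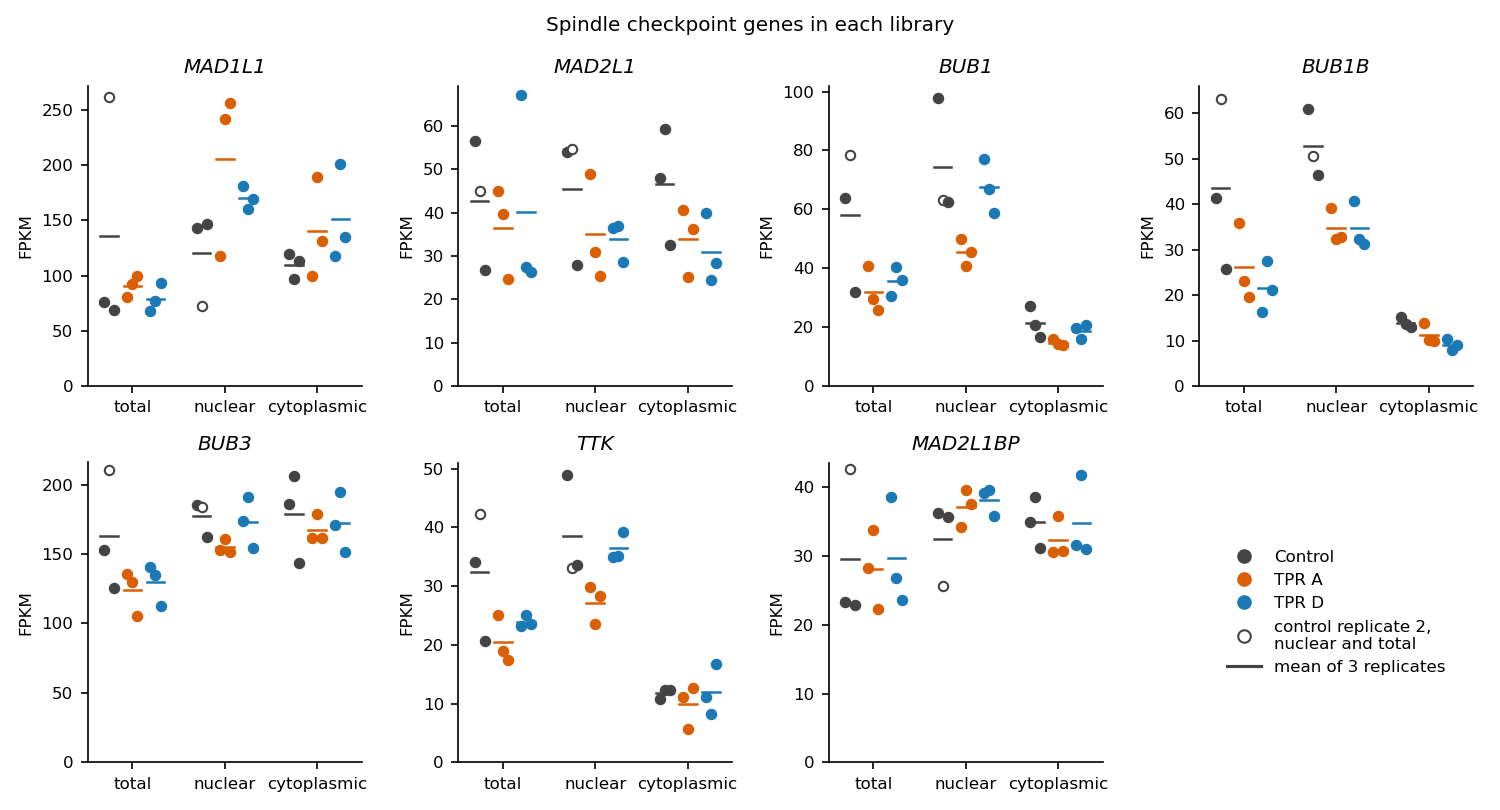
FPKM of each spindle checkpoint gene (y axis, linear from 0) in every library, by fraction (x axis) and shRNA (colour), with lines at the means of 3 replicates and open circles for the nuclear and total libraries of control replicate 2. *BUB1*, *BUB1B* and *TTK* lie lower in every cytoplasmic/ER library than in any nuclear one of the same shRNA, and the other 4 genes do not.

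The first question was where these mRNAs lie in control cells. *BUB1*, *BUB1B* and *TTK* had more FPKM in the nuclear than in the cytoplasmic/ER fraction, 3.29-fold to 3.85-fold, whereas *MAD1L1*, *MAD2L1*, *BUB3* and *MAD2L1BP* were near equal in both. In the fit across all genes with limma, 3 of the 7 genes were called nuclear-higher at a Benjamini-Hochberg adjusted p under 0.05 and none lower, where 20.2% of all tested genes were called higher and 19.2% lower. FPKM are relative to each library's own total, so an N/C ratio compares a gene with the other RNAs of its fraction and is no share of its molecules.

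*BUB1*, the kinase that scaffolds the checkpoint at the outer kinetochore, was at 97.7, 63.2 and 62.5 FPKM in control nuclear replicates 1, 2 and 3. Its control cytoplasmic/ER libraries held 27.2, 20.8 and 16.5 FPKM. The groups did not overlap, and the log2 N/C ratio was 1.82 (SE 0.26, limma adjusted p = 2.17e-05). *BUB1B*, which encodes the CDC20-binding pseudokinase BUBR1, was at 61.1, 50.7 and 46.4 FPKM in the nucleus. In the cytoplasmic/ER fraction it was at 15.1, 13.7 and 12.96 FPKM, again with no overlap. Its log2 N/C ratio was 1.94 (SE 0.26, limma adjusted p = 1.20e-05), above that of 97.2% of the tested genes. *TTK* was at 48.9, 33.0 and 33.6 FPKM in control nuclear libraries. It was at 10.7, 12.3 and 12.3 FPKM in cytoplasmic/ER libraries. Here too the groups were apart, with a log2 N/C ratio of 1.72 (SE 0.28, limma adjusted p = 7.82e-05). All 3 ratios were as large without control replicate 2: 1.91 for *BUB1*, 1.95 for *BUB1B* and 1.84 for *TTK* (limma adjusted p = 1.77e-04, 1.15e-04 and 6.08e-04).

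The other 4 genes had log2 N/C ratios of 0.11 for *MAD1L1* (95% interval -0.67 to 0.89), -0.02 for *MAD2L1* (-0.78 to 0.75), 0.04 for *BUB3* (-0.33 to 0.40) and -0.08 for *MAD2L1BP* (-0.53 to 0.38), none of them called. The interval of *MAD2L1*, the MAD1 partner that binds CDC20, is wide on both sides of 0. That of *BUB3*, the adaptor that carries BUB1 and BUBR1, is the narrowest of the 7. *MAD1L1* was at 143.0, 72.8 and 146.5 FPKM in control nuclear and at 119.9, 96.8 and 113.4 FPKM in control cytoplasmic/ER libraries. Its low nuclear value is that of replicate 2, 1 of the 2 libraries that go against their labels, and without that replicate its log2 N/C ratio was 0.34 (limma adjusted p = 0.442).

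**Figure D2:**
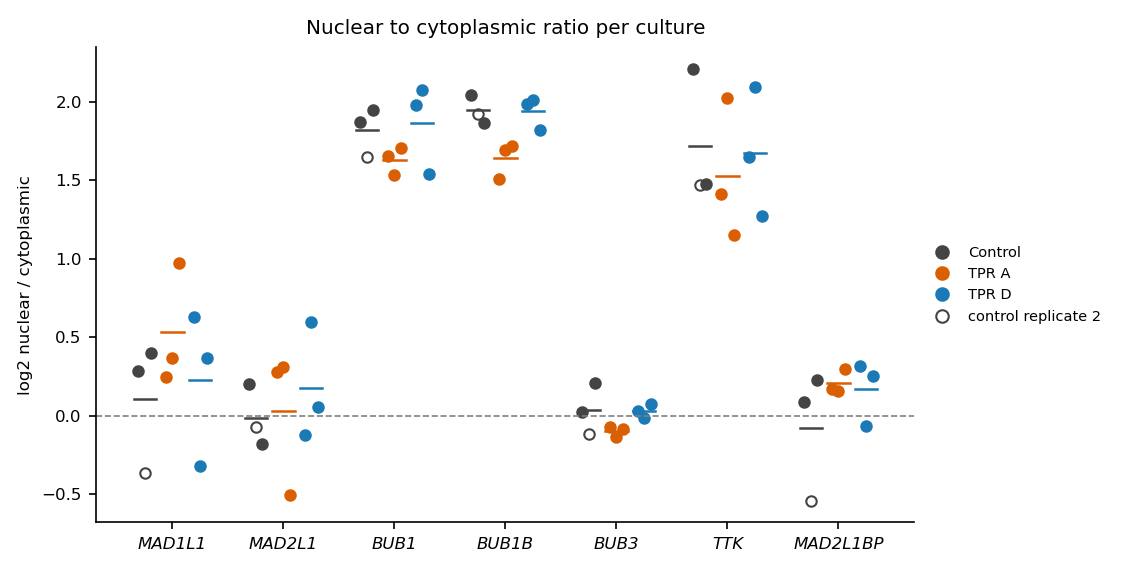
Log2 of the nuclear over the cytoplasmic/ER level (y axis) in each of the 9 cultures, by gene (x axis) and shRNA (colour), with lines at the means of 3 cultures and open circles for control replicate 2. *BUB1*, *BUB1B* and *TTK* lie between 1.15 and 2.21 in all cultures, apart from the other 4 genes, which lie between -0.54 and 0.98.

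The same 3 genes were nuclear-higher in TPR-depleted cells. Every nuclear library was above every cytoplasmic/ER library for *BUB1*, *BUB1B* and *TTK* in control, TPR A and TPR D cells alike, and for no other of the 7 genes. Over all tested genes this held for 24.7% in control, 21.5% in TPR A and 25% in TPR D cells.

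*BUB1* in TPR A nuclear libraries was at 49.9, 40.7 and 45.6 FPKM and in cytoplasmic/ER libraries at 15.9, 14.2 and 14.0 FPKM. With TPR D it was at 77.0, 66.9 and 58.6 FPKM in the nucleus and 19.6, 15.9 and 20.7 FPKM in the cytoplasmic/ER fraction. Both shRNAs thus left *BUB1* with more FPKM in the nucleus in each replicate. For *BUB1B* the TPR A values were 39.3, 32.4 and 32.9 FPKM nuclear and 13.8, 10.1 and 9.95 FPKM cytoplasmic/ER, and those with TPR D were 40.6, 32.4 and 31.3 and 10.2, 8.02 and 9.10 FPKM. *TTK* was at 29.8, 23.5 and 28.3 FPKM nuclear and 11.2, 5.77 and 12.7 FPKM cytoplasmic/ER with TPR A, and at 35.0, 35.2 and 39.2 and 11.2, 8.23 and 16.7 FPKM with TPR D.

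The study asked which RNAs need TPR to leave the nucleus, and the nearest comparison here is the change of the N/C ratio on TPR depletion. The paper reported that a subset of RNAs, histone and ribosomal protein mRNAs among them, became more nuclear. It used shrunken DESeq2 fold changes and tests over gene classes, whereas the test here takes each gene alone on FPKM. The counts that follow are thus no statement on those classes. None of the 7 genes was called with either shRNA or with both, and of all tested genes 0.0% were called in each of the 3 comparisons by limma. At an unadjusted p under 0.05 there were also 0 of the 7 genes, against 1.47% of all genes with TPR A, 0.821% with TPR D and 1.72% with both. For both shRNAs the change of the log2 N/C ratio was -0.15 for *BUB1B* (95% interval -0.81 to 0.50), -0.12 for *TTK* (-0.82 to 0.58) and -0.07 for *BUB1* (-0.73 to 0.58). It was -0.07 for *BUB3* (-0.52 to 0.38) and 0.27 for *MAD2L1BP* (-0.29 to 0.82), the gene with the shortest pre-mRNA and fewest exons of the 7. The least certain were *MAD1L1* at 0.27 (-0.68 to 1.22) and *MAD2L1* at 0.12 (-0.82 to 1.06). Without control replicate 2 the changes for both shRNAs ran from -0.24 (*TTK*) to 0.09 (*MAD2L1*), and none was called. With 3 replicates, changes that lie inside these intervals are not excluded by these values.

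The total fraction answers whether the level of the checkpoint mRNAs changed. Again 0 of the 7 genes was called by limma for TPR A, TPR D or both shRNAs, where 0.821%, 0.753% and 1.14% of all tested genes were. At an unadjusted p under 0.05 *BUB1* and *BUB1B* passed in each comparison, 2 of 7 genes, against 12.6%, 14.6% and 16.1% of all genes. With the replicate number as a block, by which control and TPR A total libraries pair, 378 in place of 120 genes were called for TPR A, none of them among the 7. The block also called 1 of the 7, *BUB1B*, for TPR D and for both shRNAs, but control and TPR D numbers did not pair in each replicate. Both shRNAs were set against the same 3 control libraries, so their values are not independent. In bulk RNA, fewer cells in mitosis and less RNA per cell cannot be told apart.

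*BUB1B* was at 41.5, 63.3 and 25.8 FPKM in control total replicates 1, 2 and 3. With TPR A it was at 35.8, 23.1 and 19.7 FPKM, and with TPR D at 16.2, 27.6 and 21.0 FPKM. The groups overlapped, since control replicate 3 lay below the highest library of each shRNA. The log2 difference was -0.62 for TPR A (SE 0.26, limma adjusted p = 0.308), -0.87 for TPR D (SE 0.26, adjusted p = 0.108) and -0.75 for both (95% interval -1.21 to -0.28, adjusted p = 0.0993). Once the replicate number was blocked, *BUB1B* passed the threshold for TPR D (limma adjusted p = 0.0437) and for both shRNAs (adjusted p = 0.0413). The log2 difference for both shRNAs was -0.46 without control replicate 2 (limma adjusted p = 0.623) and -1.05 without control replicate 3 (adjusted p = 0.0319).

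*BUB1* was at 63.9, 78.6 and 31.9 FPKM in control total libraries, with TPR A at 40.9, 29.4 and 25.7 FPKM and with TPR D at 30.4, 40.5 and 36.1 FPKM. As for *BUB1B*, control replicate 3 lay within the range of the depleted libraries. The log2 difference was -0.73 for TPR A (SE 0.26, limma adjusted p = 0.214), -0.54 for TPR D (SE 0.26, adjusted p = 0.337) and -0.63 for both (95% interval -1.09 to -0.17, adjusted p = 0.161). It was -0.40 for both shRNAs without control replicate 2 (limma adjusted p = 0.713). Without control replicate 3 *BUB1* passed for TPR A (log2 difference -1.09, limma adjusted p = 0.0270) and for both (-0.99, adjusted p = 0.0241).

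*TTK*, which encodes the kinase at the head of the checkpoint, also had its lowest control value in replicate 3, at 34.2, 42.3 and 20.6 FPKM in control, 25.02, 19 and 17.4 with TPR A and 23.2, 25.1 and 23.6 with TPR D. Its log2 difference for both shRNAs was -0.42 (95% interval -0.92 to 0.07, limma adjusted p = 0.385), or -0.24 without control replicate 2. Control replicate 2 was the highest of the 3 control total libraries for 6 of the 7 genes, all but *MAD2L1*. By profile this total library was closest to nuclear libraries, where *BUB1*, *BUB1B* and *TTK* had more FPKM than in cytoplasmic/ER ones. Its share in their total-fraction differences was not tested beyond leaving the replicate out.

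*MAD1L1*, whose product anchors MAD2 at kinetochores and at TPR, depended most on that library. It was at 76.1, 262.2 and 69.1 FPKM in control total libraries, 80.5, 92.9 and 99.7 with TPR A and 68.0, 76.6 and 93.1 with TPR D. All depleted libraries lay far below control replicate 2 and most above the other 2 control libraries. The log2 difference for both shRNAs was -0.33 (95% interval -1.004 to 0.34, limma adjusted p = 0.635), and it turned to 0.25 without control replicate 2 (adjusted p = 0.869).

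For *MAD2L1* the control total values were 56.5, 45.0 and 26.7 FPKM, those of TPR A 45.0, 39.7 and 24.8, and those of TPR D 67.1, 27.4 and 26.2. The replicates of a group differed by more than the groups did, and the log2 difference for both shRNAs was -0.12 (95% interval -0.78 to 0.55). *BUB3*, the most abundant gene of the 7, had -0.27 (-0.59 to 0.05), with 125.5 to 210.6 FPKM in control and 105.3 to 140.8 FPKM in the depleted libraries. *MAD2L1BP* had 0.07 (-0.32 to 0.47), with 22.8 to 42.5 and 22.2 to 38.5 FPKM. Without control replicate 2 the 3 log2 differences were -0.08, -0.10 and 0.33, none of them called. None of the intervals with all libraries reached a 2-fold change, as those of *BUB1*, *BUB1B* and *MAD1L1* did on the lower side. TPR A and TPR D did not separate any of the 7 genes in the total fraction: 0 were called by limma (0.281% of all genes) and 0 had an unadjusted p under 0.05 (7.41%), with log2 differences of TPR A minus TPR D from -0.26 (*TTK*, 95% interval -0.83 to 0.32) to 0.25 (*BUB1B*, -0.28 to 0.78).

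**Figure D3:**
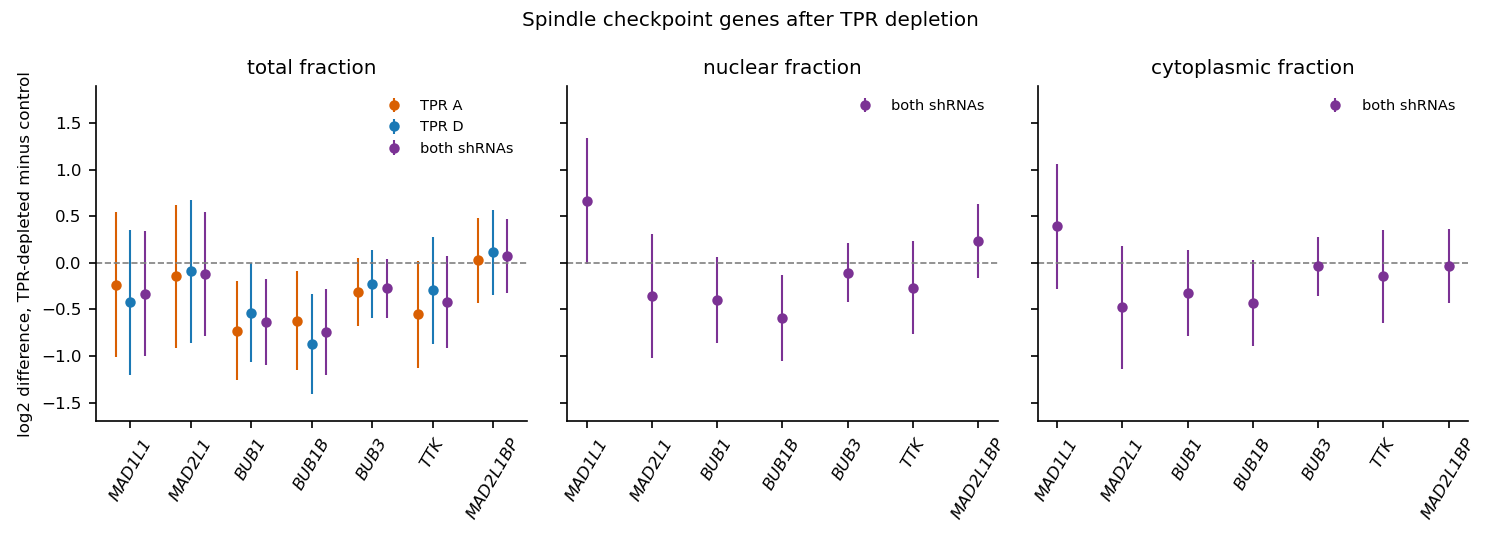
Log2 difference of TPR-depleted minus control cells (y axis) for each gene (x axis) in the total, nuclear and cytoplasmic/ER fractions, with 95% intervals from the limma fit. In the total fraction the intervals of *BUB1* and *BUB1B* lie below 0 for TPR A, TPR D and both shRNAs, and neither passed the adjusted threshold.

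In the nuclear fraction 0 of the 7 genes was called by limma for both shRNAs, against 0.808% of all tested genes, and 1 gene, *BUB1B*, had an unadjusted p under 0.05, against 11.8%. The 6 depleted nuclear libraries of *BUB1B* lay between 31.3 and 40.6 FPKM, all below the 3 control libraries of 46.4 to 61.1 FPKM. The log2 difference was -0.59 (95% interval -1.05 to -0.13, limma adjusted p = 0.272), and it was -0.61 without control replicate 2 (adjusted p = 0.430). In no other of the 7 genes, and in no other fraction, were the depleted and control libraries apart. Over all genes 3.24% had every depleted nuclear library lower than every control one (6.74% when control replicate 2 was left out) and 2.97% had every one higher. In the total fraction these shares were 2.98% and 3.94%, and in the cytoplasmic/ER fraction 2.89% and 2.5%.

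*MAD1L1* pointed the other way in the nucleus, at 117.6, 242.3 and 256.8 FPKM with TPR A and 180.9, 160.0 and 169.2 with TPR D, against 143.0, 72.8 and 146.5 in control. Its log2 difference was 0.66 (95% interval -0.01 to 1.34, limma adjusted p = 0.434). Without control replicate 2, the lowest of the 9 libraries, it was 0.34 (adjusted p = 0.797). The other 5 genes had nuclear log2 differences of -0.40 (*BUB1*) to 0.23 (*MAD2L1BP*).

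In the cytoplasmic/ER fraction none of the 7 genes was called by limma for both shRNAs (0.643% of all genes were), and none had an unadjusted p under 0.05 (11.4% did). The log2 differences ran from -0.48 for *MAD2L1* (95% interval -1.14 to 0.19) over -0.44 for *BUB1B* (-0.90 to 0.03) to 0.39 for *MAD1L1* (-0.28 to 1.07). *BUB3* and *MAD2L1BP* were both at -0.03, with intervals of -0.35 to 0.28 and -0.43 to 0.36.

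Sample descriptions are written in another style for replicate 1 than for replicates 2 and 3, and what this stands for is not stated. In replicate 1 alone the total-fraction log2 difference for both shRNAs was -0.72 for *BUB1B*, -0.79 for *BUB1* and -0.44 for *TTK*. In replicates 2 and 3 alone it was -0.76, -0.55 and -0.41, none of them called (limma adjusted p = 0.370, 0.457 and 0.605). The log2 N/C ratio in control cells was 2.05, 1.88 and 2.22 for these 3 genes in replicate 1. In the other 2 replicates it was 1.89, 1.79 and 1.47, all called (limma adjusted p = 3.17e-03, 4.28e-03 and 0.0194).

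The checkpoint acts with a wider set of genes, which were listed by their known role. In the total fraction with both shRNAs none of the 12 genes of the kinetochore platform was called, and their median log2 difference was -0.04, beside -0.01 over all tested genes and -0.33 over the 7 checkpoint genes. *MIS12*, of the complex that joins microtubule binders to the centromere, was at 0.31 (SE 0.21, limma adjusted p = 0.476), and *PMF1*, of the same complex, at -0.40 (SE 0.30, adjusted p = 0.520). Among the 5 genes of the RZZ complex (which brings MAD1 to kinetochores) and *TRIP13* (the ATPase that works with p31comet) there was also no call, with a median of -0.01. *ZW10*, of the RZZ complex, was at -0.32 (SE 0.16, limma adjusted p = 0.331) and *TRIP13* at -0.42 (SE 0.27, adjusted p = 0.441).

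All 4 genes of the chromosomal passenger complex, which corrects faulty attachments, were below 0 for both shRNAs, as were 7479 of all 14611 tested genes. The list median was -0.63, and none of the 4 was called. The median was -0.28 without control replicate 2. Its kinase *AURKB* was at 72.6, 162.7 and 38.1 FPKM in control, 43.5, 43.9 and 30.8 with TPR A and 41.8, 56.4 and 35.9 with TPR D (log2 difference for both -0.82, SE 0.35, limma adjusted p = 0.245). *CDCA8*, its borealin subunit, was at -0.64 (SE 0.26, limma adjusted p = 0.219). As in the checkpoint genes, control replicate 2 was the highest library of both, and without it they were at -0.31 and -0.26.

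Of the 21 genes of the anaphase-promoting complex and its activators, E2 enzymes and substrates, 17 were below 0 (7479 of all 14611 tested genes were), with a median of -0.28 and no call in the total fraction. *ANAPC15*, a subunit that helps release MAD2 and BUBR1 from the complex, was at 40.5, 44.04 and 43.4 FPKM in control, 35.9, 29.4 and 26.8 with TPR A and 34.2, 19.1 and 19.4 with TPR D. The groups did not overlap, and the log2 difference was -0.61 (SE 0.18, limma adjusted p = 0.102). Over all tested genes 2.98% had every depleted total library lower than every control one. In the cytoplasmic/ER fraction *ANAPC15* was the 1 gene of this list that was called, where 0.643% of all tested genes were. It fell by 0.82 on the log2 scale (SE 0.18, limma adjusted p = 0.0405). This call was lost without any 1 of the 3 control cultures, the 3 TPR A cultures or TPR D replicate 3 (log2 differences from -0.89 to -0.75, limma adjusted p = 0.0800 to 0.175). Once the replicate number was blocked, *ANAPC11*, a catalytic subunit, was also called there (log2 difference -0.84, limma adjusted p = 0.0427). For TPR D in the total fraction *ANAPC15* was called with the block (-0.79, adjusted p = 0.0394) and without TPR D replicate 1 (-1.07, adjusted p = 0.0362). For both shRNAs it was called without TPR D replicate 1 (-0.74, adjusted p = 0.0415). *CDC23*, a scaffold subunit, was at -0.48 in the total fraction (SE 0.15, limma adjusted p = 0.115), or -0.29 without control replicate 2, and was called at -0.66 without control replicate 3 (adjusted p = 0.0413). It was called lower for TPR A with the replicate number as a block (log2 difference -0.69, limma adjusted p = 0.0340), as was the E2 enzyme *UBE2S* (-0.96, adjusted p = 0.0443), which the block also called for both shRNAs (-0.79, adjusted p = 0.0460). *UBE2S* and *ANAPC11* were chosen with their values in view.

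Among the 12 markers of G2 and mitosis, 12 were below 0 in the total fraction for the mean of both shRNAs, with a median of -0.38, and 1 was called. Of all 14611 tested genes 7479 were below 0 and 1.14% were called. The markers were measured in the same libraries, so their directions are not independent of each other. With TPR A alone 12 of the markers were below 0 and with TPR D alone 8, beside 7390 and 7427 of all 14611 tested genes. Without control replicate 2 the mean of both shRNAs was below 0 for 10 of the markers, with a median of -0.18. The called gene was *KIF20A*, a kinesin of the late spindle, with 90.9, 181.1 and 73.7 FPKM in control, 63.7, 50.2 and 43.5 with TPR A and 42.2, 68.5 and 55.3 with TPR D. It fell by 0.94 on the log2 scale (SE 0.21, limma adjusted p = 0.0338), and the log2 difference was -0.59 without control replicate 2 (adjusted p = 0.252). It also missed the threshold without control replicate 1, without any 1 TPR A replicate and without TPR D replicate 1 or 3 (log2 differences from -1.05 to -0.85, limma adjusted p = 0.0678 to 0.107). Without control replicate 3 *KIF20A*, *AURKA* and *PLK1* were all called for both shRNAs (log2 differences -1.18, -0.96 and -1.44, limma adjusted p = 0.0171, 0.0319 and 0.0479). Under the replicate block 3 genes of the list were called lower for TPR A, *KIF20A* (log2 difference -0.98, limma adjusted p = 0.0364), *PLK1* (-1.10, adjusted p = 0.0467) and *AURKA* (-0.83, adjusted p = 0.0277). For TPR D alone the block called *KIF20A* (log2 difference -0.90, limma adjusted p = 0.0491). For both shRNAs it called *KIF20A*, *PLK1*, *AURKA* and *CCNB2* (-0.56, adjusted p = 0.0400), a mitotic cyclin. *AURKA* and *CCNB2* were chosen with their values in view. *PLK1*, the kinase that drives mitotic entry, was at 94.5, 245.5 and 66.0 FPKM in control, 59.8, 53.6 and 42.2 with TPR A and 38.2, 77.4 and 53.3 with TPR D, a log2 difference of -1.06 (SE 0.33, limma adjusted p = 0.107), or -0.55 without control replicate 2. The part of mitotic cell numbers in the values of the checkpoint genes was not tested. None of the 11 S phase markers was called (median -0.45), with *MCM3* and *MCM2*, of the replicative helicase, at -0.67 (SE 0.25, limma adjusted p = 0.187) and -0.75 (SE 0.30, adjusted p = 0.229). These were -0.22 and -0.26 without control replicate 2, and the list median was -0.15. Without control replicate 3 *MCM3* was called (log2 difference -1.05, limma adjusted p = 0.0390), as was *MCM4* of the same helicase (-0.80, adjusted p = 0.0484), chosen with its values in view.

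**Figure D4:**
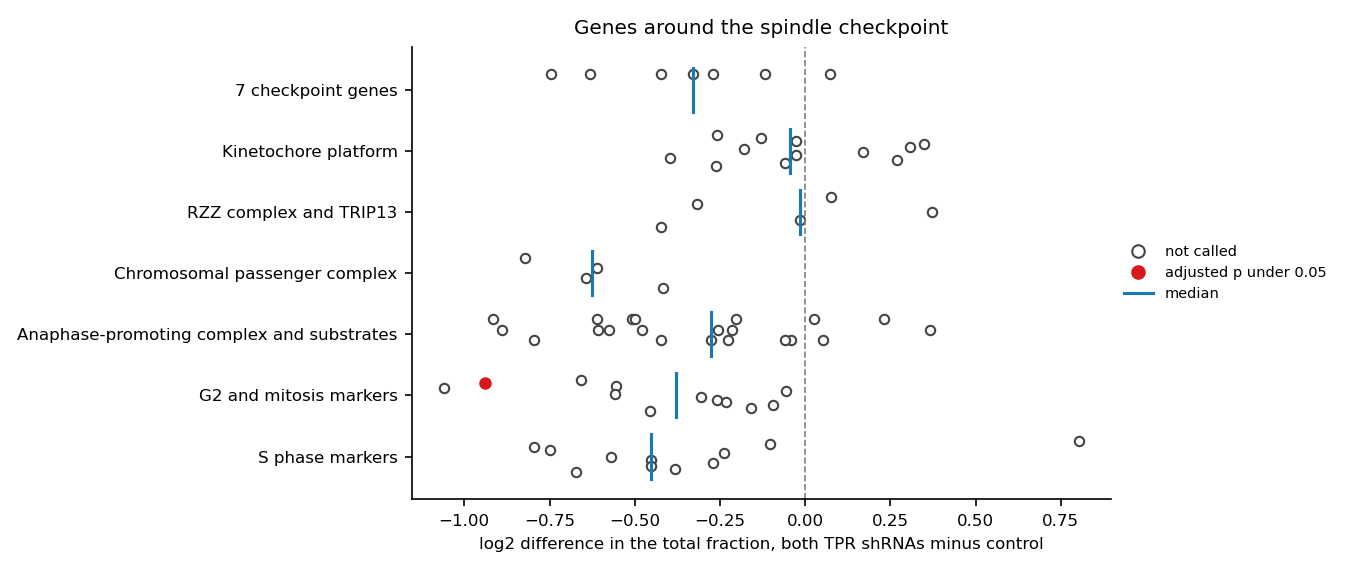
Log2 difference in the total fraction for both TPR shRNAs minus control (x axis) for each gene of 7 lists (y axis), with blue lines at the list medians and filled red points for genes past the adjusted threshold. *KIF20A* is the only filled point, and 12 of 12 markers of G2 and mitosis lie below 0 for this mean of both shRNAs, beside 7479 of all 14611 tested genes.

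High N/C ratios in control cells were also found in these lists. Of the kinetochore platform 5 of 12 genes were called nuclear-higher and none lower, among them *CENPF* (log2 N/C ratio 3.98, SE 0.39, limma adjusted p = 5.23e-07), *KNL1* (3.52, SE 0.38, adjusted p = 1.91e-06) and *NDC80* (1.60, SE 0.28, adjusted p = 1.70e-04). *KNL1* is the platform on which BUB1 and BUBR1 assemble. Of the G2 and mitosis markers 6 of 12 were called higher and none lower. The anaphase-promoting complex list had 3 genes called higher and 7 lower. Without control replicate 2 these counts were 5 and 0, 6 and 0, and 2 and 6, with log2 N/C ratios of 3.61 for *CENPF*, 3.45 for *KNL1* and 1.82 for *NDC80*. These values stand beside 20.2% called higher and 19.2% lower over all tested genes, and the choice of *KNL1*, *CENPF* and *NDC80* as examples was made after their values were known.

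Over all 27 libraries, which span fractions between which 3 of the genes differed 3.29-fold to 3.85-fold in control cells, the log2 levels of *BUB1* and *BUB1B* had a Pearson r of 0.95, those of *BUB1* and *TTK* 0.94 and those of *BUB1B* and *TTK* 0.91. No other pair was above 0.66, the r of *MAD1L1* and *MAD2L1BP*, and *MAD1L1* and *MAD2L1*, whose proteins form 1 complex, had an r of -0.46. Within 1 fraction, over 9 libraries each, the r of *BUB1* and *BUB1B* was 0.91 in total, 0.68 in nuclear and 0.42 in cytoplasmic/ER libraries. That of *BUB1* and *TTK* was 0.98, 0.90 and 0.38, and that of *BUB1B* and *TTK* 0.82, 0.55 and 0.17, in the same order. Other pairs reached similar or higher values within a fraction. The r of *BUB3* and *TTK* was 0.86 in total libraries and that of *MAD1L1* and *MAD2L1BP* 0.85 in nuclear ones. In cytoplasmic/ER libraries *BUB3* and *MAD2L1BP* had 0.85, the highest of all pairs there. *MAD1L1* and *MAD2L1* had -0.07 in total, -0.79 in nuclear and -0.86 in cytoplasmic/ER libraries. Points share fractions, cultures and shRNAs, so these values describe the table and carry no p.

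The tested genes most like each member were found by the same r over the 27 libraries, so differences between fractions enter these values too. For *TTK* they were *KIF11* (r = 0.98), *HMMR* (0.97) and *DLGAP5* (0.97), all of them genes of the mitotic spindle. For *BUB1* they were *NCL* (0.96), *RRM1* (0.95) and *CENPI* (0.95), and for *BUB1B* they were *RBM28* (0.97), *CKAP5* (0.96) and *BMS1* (0.96). *MAD2L1* was closest to *CENPH* (0.88), a centromere protein, then *RFC3* (0.86) and *GPN3* (0.86). *MAD1L1* was closest to *VPS33B* (0.95), *LMNA* (0.94) and *AMBRA1* (0.93). *BUB3* was closest to *HNRNPAB* (0.92), *APTX* (0.91) and *PRPF4* (0.90), and *MAD2L1BP* to *MRPL27* (0.90), *MRPL46* (0.89) and *TMEM208* (0.89).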

How the data were processed

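The authors quantified reads with Salmon, summed transcripts to genes and deposited FPKM for 34464 genes. The submitters' processing notes name hg19 as the build and also DESeq2, which the authors used for fold changes. No deposited column was left out, and read counts were not used here, so no count model was run. Of the gene IDs 32776 matched GENCODE release 44 placed on GRCh37 and 1688 did not. Genes outside the mitochondrial genome with a mean above 1 FPKM (14611) were kept, divided by median-of-ratios factors (0.954 to 1.06) and transformed as log2(FPKM + 0.1), on which all fold changes stand. A linear model with 9 groups and no replicate block was fitted to all 27 libraries with limma 3.58.1 (R 4.3.3, moderated by eBayes with a trend), with Benjamini-Hochberg adjustment over all genes and a threshold of 0.05. On simulated data it was tested before use. Depth was estimated from 7267 genes with 1 transcript, for which 89.2% to 91.9% of low values came within 0.1 of a whole read. Tables and figures were made with Python 3.11.15 and matplotlib 3.10.9.

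The 7 genes, the pathway lists and the markers were chosen with earlier results of these data known. Named from each list were genes called in the total fraction, or else the 2 with the lowest unadjusted p for both shRNAs, and for each member the 3 genes with the highest r. Same-numbered control and TPR A total libraries deviated together (correlations of 0.137 to 0.324, over 0.1 in each of the 3 pairs), whereas those of control and TPR D did not in each pair, so the replicate block is printed only where it changes a call. Alternatives were other pseudocounts, filters and scaling, no trend, a replicate or culture block, fewer groups in the fit, each culture left out and replicates split by naming style.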

Additional observations from a re-analysis of the deposited data

How the results depend on the processing

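The 3 nuclear-higher calls in control cells held under each alternative that gave a test (3 with any culture left out), and no member was called under any of them for the nuclear, cytoplasmic/ER or N/C change comparisons. In the total fraction the count of members called was 0 to 1 for TPR A, 0 to 1 for TPR D and 0 to 2 for both shRNAs with 1 culture left out, the calls coming without control replicate 3. With the replicate number as a block it was 1 for TPR D and 1 for both, each time *BUB1B* (limma adjusted p = 0.0437 and 0.0413), though control and TPR D numbers pair the libraries no more than by name (correlations of -0.01 to 0.197), and the block changed no other call of a member. Genes called in all numbered 110 for TPR D and 166 for both, 461 and 560 with the block, and 5 and 1 with only the groups compared in the fit. For TPR A 120 became 1 with only those groups, and with a minimum mean of 5 FPKM the 3 counts were 48, 44 and 78. Leaving out each culture gave 4 to 168 genes for TPR A, 31 to 113 for TPR D, 32 to 257 for both, 40 to 99 in the nuclear and 20 to 92 in the cytoplasmic/ER fraction (118 and 94 with all). The count of G2 and mitosis markers called for both shRNAs went from 1 to 4 with the block and to 0 without control replicate 2. The cause was not tested.

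Of 1330 member values under the 19 alternatives with a test, 1255 kept direction and side of the threshold, 6 newly passed it and 69 changed sign, 54 of these with 1 culture left out. None of those that changed sign was called. In replicates 2 and 3 alone *MAD2L1BP* was at -0.11 (TPR A), -0.23 (TPR D) and -0.17 (both) in the total fraction and at 0.00248 (both) in the cytoplasmic/ER fraction. There the N/C change of *TTK* was 0.12 (TPR A), 0.21 (TPR D) and 0.16 (both), that of *BUB1B* was 0.0220 (TPR D), and TPR A minus TPR D was 0.22 for *MAD2L1*, -0.19 for *BUB1B* and 0.11 for *MAD2L1BP*. With values as deposited *MAD2L1BP* was at -0.0317 for TPR A, and N/C changes with TPR D were 0.0109 for *BUB1B* and 0.00667 for *BUB3*. With a minimum of 5 FPKM the N/C ratio of *MAD2L1* was 0.0398.

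With each culture left out in turn, total-fraction log2 differences for TPR A ran from -0.55 to 0.35 (*MAD1L1*), -0.42 to 0.11 (*MAD2L1*) and -0.11 to 0.29 (*MAD2L1BP*). For TPR D they ran from -0.75 to 0.16, -0.53 to 0.15 and -0.0916 to 0.37, and for both shRNAs from -0.65 to 0.25, -0.40 to 0.12 and -0.0647 to 0.33, in the same order. In the cytoplasmic/ER fraction they ran from -0.18 to 0.0783 (*BUB3*), -0.28 to 0.0293 (*TTK*) and -0.10 to 0.0420 (*MAD2L1BP*). N/C ratios in control cells ran from -0.0373 to 0.34 (*MAD1L1*), -0.12 to 0.0662 (*MAD2L1*), -0.0445 to 0.12 (*BUB3*) and -0.23 to 0.16 (*MAD2L1BP*). N/C changes with TPR A ran from -0.0970 to 0.30 (*MAD2L1*) and -0.44 to 0.0569 (*TTK*). With TPR D they ran from -0.12 to 0.39 (*MAD1L1*), -0.0147 to 0.35 (*MAD2L1*), -0.0626 to 0.20 (*BUB1*), -0.0469 to 0.0543 (*BUB1B*), -0.0849 to 0.0730 (*BUB3*) and -0.26 to 0.20 (*TTK*), and with both from -0.16 to 0.00599 (*BUB1*), -0.15 to 0.00983 (*BUB3*) and -0.24 to 0.13 (*TTK*). TPR A minus TPR D ran from -0.29 to 0.39 (*MAD2L1*), -0.18 to 0.0310 (*BUB3*), -0.23 to 0.12 (*MAD2L1BP*) and -0.38 to 0.0638 (*TPR*).

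With 3 libraries a group, changes inside the 95% intervals of the 7 genes are not excluded by these values. Replicate 1 alone gave values with no test, of which 14 of 70 had the other sign.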
